A study of Sus scrofa with 22 samples.

Results

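Swine MHC antigen presentation was followed over 4 ages of pigs through 5 genes, read by 15 of the 23999 probe sets tested on an Affymetrix porcine array. The 15 were all probe sets that the array annotation assigns to the single gene symbol SLA-2 (1 probe set), SLA-DRA (1), SLA-DRB1 (3), CD74 (1) or B2M (9), a rule that uses symbols and no signal values. The genes themselves were chosen with earlier results of these data known. A further 6 probe sets that list SLA-2 or SLA-DRB1 beside another symbol were not taken as members. The 22 samples were offspring of German Landrace gilts that had eaten a gestational adequate protein [AP] diet, sampled before birth at day 94 of gestation (94 dpc, n = 6) and after it on day 1 (1 dpn, n = 6), day 28 (28 dpn, n = 6) and day 188 (188 dpn, n = 4). This maternal diet was common to the 4 groups, so age was the only factor compared. Each stage drew on the litters of 3 gilts, and the labels do not say which animals were littermates.

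MHC class I molecules consist of a heavy chain and beta-2-microglobulin, and they display peptides from inside the cell to CD8 T cells on nearly all nucleated cells. MHC class II molecules are made of an alpha and a beta chain, are held by the invariant chain CD74 until they reach the compartment where peptide is loaded, and present peptides to CD4 T cells. In muscle and in liver, class II is known chiefly from macrophages, dendritic cells and other immune cells between the parenchymal cells, whereas class I is more widespread and is raised by interferons. In the pig the MHC is called the swine leukocyte antigen (SLA) complex.

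Liver was the tissue in the sample labels, whereas the title of the series spoke of muscle. The highest mean signals among genes with a symbol belonged to MYL1, a myosin light chain (68608 over 22 arrays), and TPM1, a tropomyosin (62952), and the 11 measured skeletal muscle markers had summed signals of 270196 to 794842 per array, against 1842 to 55353 for the 11 measured liver markers. Signals were deposited on a linear scale and had been scaled to a 2% trimmed mean of 500.1 to 500.2 on every array, and a signal of 69.7 was taken as background (the 95th percentile of 23 control probe sets with no target). The 1 dpn arrays were of 2 kinds. In 1 dpn replicates 2, 3, 4 and 5 the ratio of 5' to 3' signal of the GAPDH control was 0.140 to 0.332, and in 1 dpn replicates 1 and 6 it was 1.14 to 1.15, against 0.731 to 1.26 on the 16 arrays of the other stages. The same ratio of the dap spike-in control was 0.062 to 0.096 at 94 dpc, 0.355 to 0.407 at 28 dpn and 0.283 to 0.361 at 188 dpn. At 1 dpn it was 0.053 to 0.085 in replicates 2, 3, 4 and 5, and 0.345 and 0.135 in replicates 1 and 6. This ratio thus set 94 dpc apart from 28 dpn and 188 dpn without overlap, and its part in the stage differences was not tested. Results that rest on 1 dpn are given with all 6 arrays, and also with the 2 even arrays alone where that ends a call. Changes were tested on log2(signal + 16) with limma, adjusted over all 23999 probe sets, and a probe set is said to have risen or fallen where the adjusted p was under 0.05.

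The class I heavy chain SLA-2 and the class II genes SLA-DRA and CD74 had their highest signals at 28 dpn. They were 2.48 to 4.47 times as high at 28 dpn as at 94 dpc and 6.68 to 8.18 times as high as at 1 dpn, and 4 of the 9 B2M probe sets were also higher than at 94 dpc, whereas SLA-DRB1 was not called against 94 dpc. Over the 4 stages, 14 of the 15 probe sets differed (limma F test), where 51.4% of all probe sets did. At 28 dpn against 94 dpc, 7 of 15 were higher and 1 was lower, where 13.1% and 17.2% of all probe sets were (30.3% in either direction). The 28 dpn to 1 dpn comparison had 9 higher and 1 lower, where 13.9% and 8.39% of all were (22.3% in either direction). The 188 dpn to 28 dpn comparison had 0 higher and 5 lower, where 3.65% and 8.2% of all were (11.8% in either direction). The median log2 change of the 15 was 0.59 at 28 dpn against 94 dpc, 0.97 at 28 dpn against 1 dpn and -0.61 at 188 dpn against 28 dpn, beside 0.02, 0.10 and -0.12 over all probe sets. Quantile normalization moved these medians over all probe sets to 0.01, -0.04 and 0.02.

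**Figure D1:**
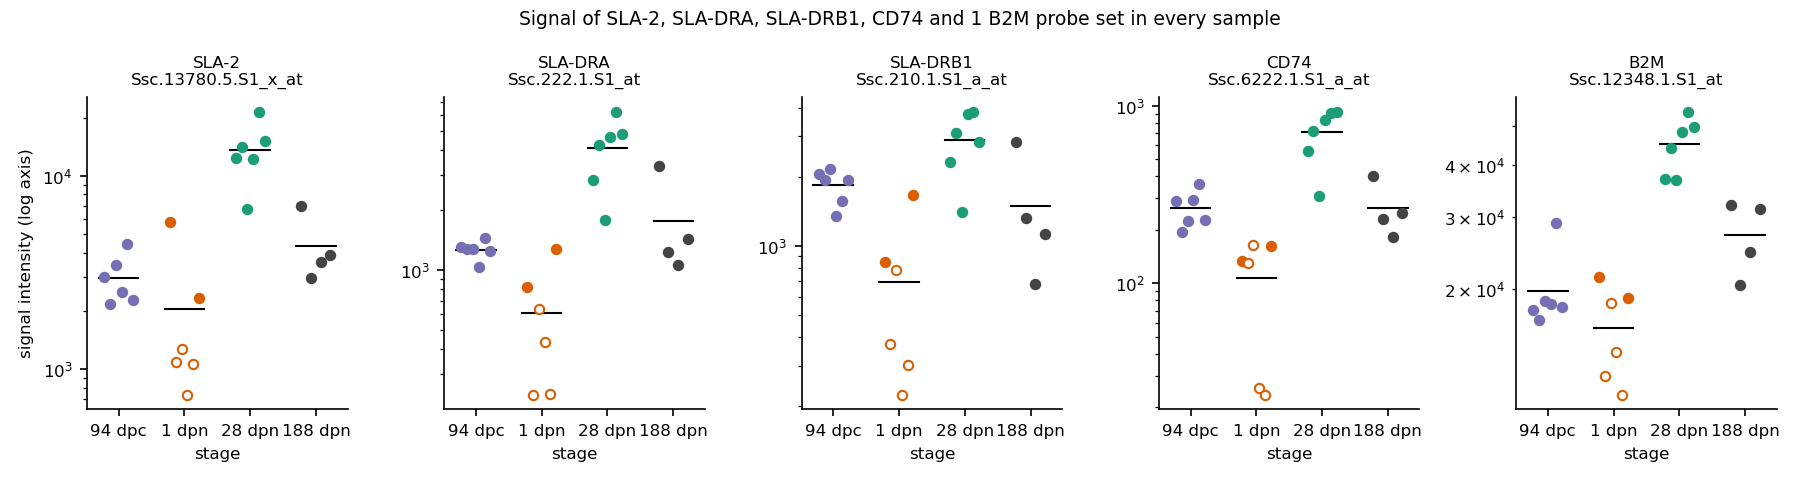
Signal intensity (log axis) of SLA-2, SLA-DRA, SLA-DRB1, CD74 and the B2M probe set Ssc.12348.1.S1_at in each of the 22 samples, by stage; black lines are stage means and open circles are the 4 arrays at 1 dpn with a low GAPDH 5' to 3' ratio. In each panel the highest stage mean is at 28 dpn, for SLA-2 at 13661 beside 2973 at 94 dpc. The B2M probe set was chosen for its likeness to SLA-2, and some other B2M probe sets peak at 1 dpn.

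SLA-2, a classical class I heavy chain, gave the largest change of the 15 probe sets between 28 dpn and both earlier stages when all arrays were used. With the even 1 dpn arrays alone, CD74 (log2 change 2.07) and SLA-DRA (1.87) changed more against 1 dpn than SLA-2 (1.81). The SLA-2 signals (Ssc.13780.5.S1_x_at) were 3008, 2161, 3452, 2517, 4417 and 2280.4 at 94 dpc and 5756, 1091, 1275, 736, 1059.9 and 2331 at 1 dpn. At 28 dpn they were 12366, 14147, 6741, 12180.0, 21468 and 15064, and at 188 dpn 6950.3, 2977, 3570.1 and 3900.4. All 6 animals at 28 dpn lay above all 12 younger ones, and 1 animal at 188 dpn lay within the range of 28 dpn.

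SLA-2 averaged 13661 ± 4794 at 28 dpn and 2973 ± 856 at 94 dpc (SD, n = 6 each), a log2 change of 2.16 ± 0.38 (SE) or 4.47-fold (limma, adjusted p = 0.000158). Against 1 dpn, where the mean was 2041 ± 1899.7 (SD, n = 6), the log2 change was 3.03 ± 0.38 (limma, adjusted p = 6.9e-06), and it was 1.81 against the 2 even 1 dpn arrays (adjusted p = 0.0054). At 188 dpn it was lower than at 28 dpn by a log2 change of -1.64 ± 0.42 (limma, adjusted p = 0.0127), which became 0.0533 without 188 dpn replicate 2. Its level at 188 dpn, 4349 ± 1776 (SD, n = 4), was not called different from 94 dpc (log2 change 0.51 ± 0.42, limma adjusted p = 0.381). The suffix of this probe set marks probes that also match related sequences, and class I heavy chains resemble one another closely, so its signal may hold RNA of other SLA class I genes.

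B2M encodes beta-2-microglobulin, the light chain that all classical class I heavy chains need to reach the cell surface. The annotation gave its 9 probe sets the same gene identifier, yet they did not move together. From 94 dpc to 28 dpn, 4 rose, 1 fell and 4 were not called, and the correlation between pairs of them over the 22 arrays ran from -0.72 to 0.76.

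**Figure D2:**
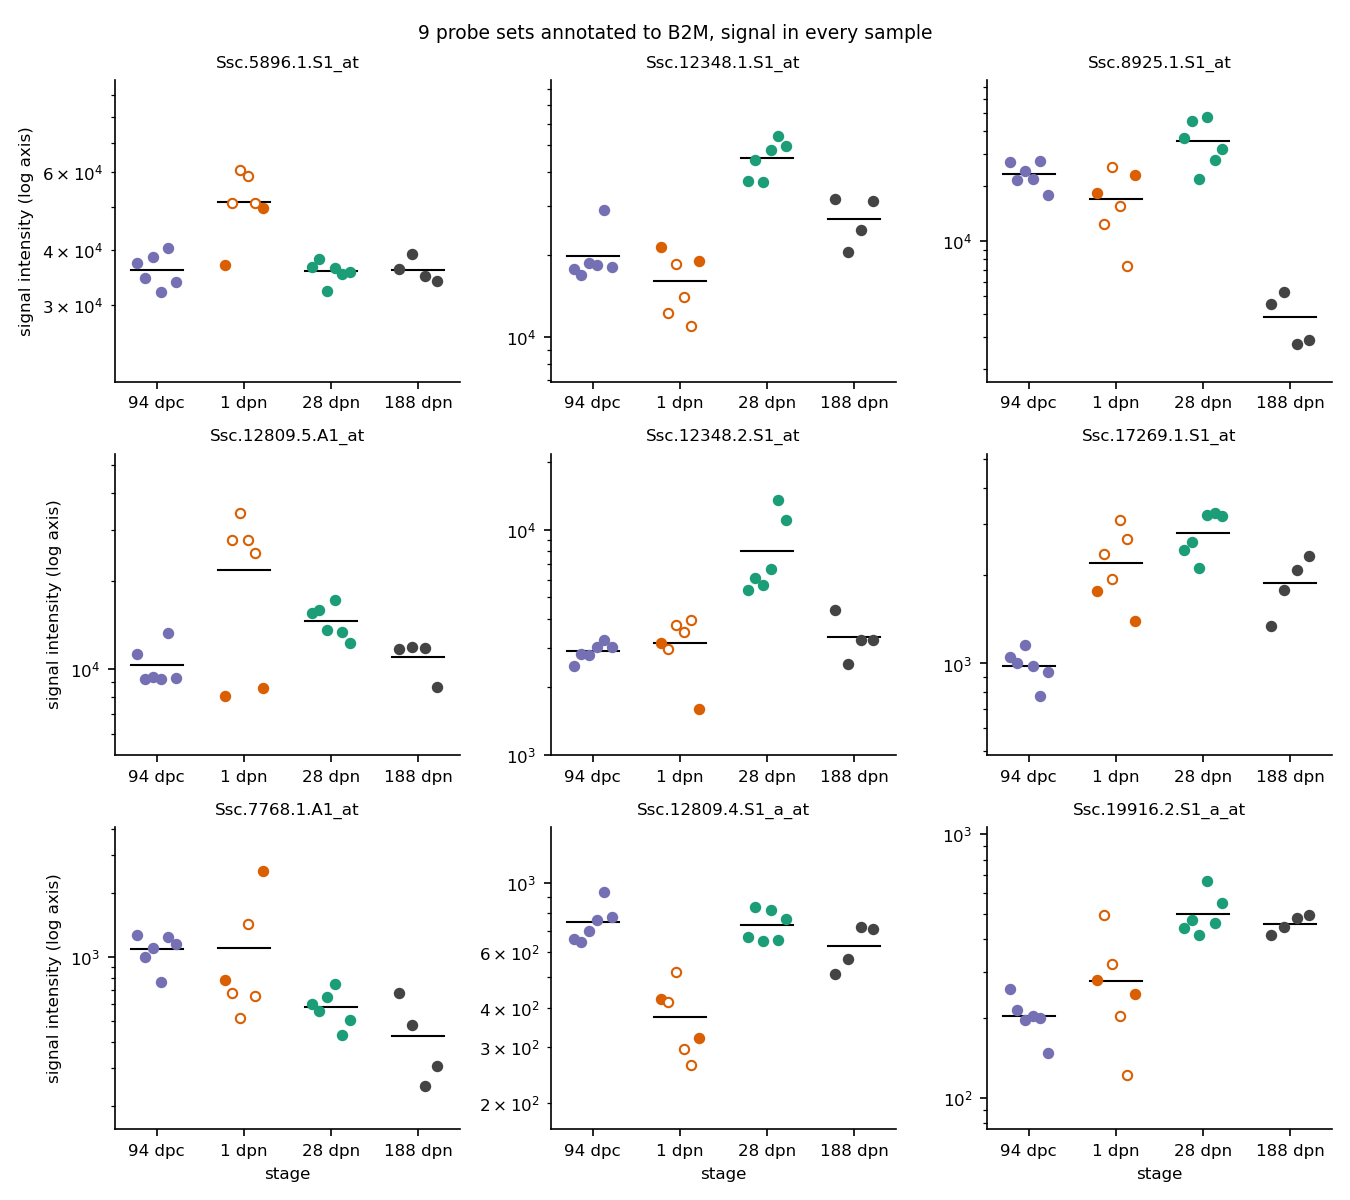
Signal intensity (log axis, a separate scale in each panel) of the 9 probe sets annotated to B2M in each sample, by stage, with stage means as black lines and the 4 low-ratio arrays at 1 dpn as open circles. The panels differ in shape: Ssc.12348.1.S1_at peaks at 28 dpn with a mean of 45002, Ssc.12809.5.A1_at at 1 dpn with 21859.5, and Ssc.8925.1.S1_at drops to 3851 at 188 dpn.

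The B2M probe set Ssc.12348.1.S1_at followed SLA-2 most closely, and it was singled out for that, so its likeness to SLA-2 is given as a description. Its signals were 17707, 16779.7, 18619.9, 18364, 28980.0 and 18041 at 94 dpc and 21298, 12246, 18492, 13994, 11009 and 19011 at 1 dpn. They were 37080.5, 44057, 36837, 48279, 54115 and 49643 at 28 dpn and 31999, 20406, 24614 and 31246 at 188 dpn. The 28 dpn animals lay above every animal of the other 3 stages.

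This B2M probe set averaged 45002 ± 7009 at 28 dpn and 19749 ± 4567 at 94 dpc (SD, n = 6 each), 2.30-fold (log2 change 1.20 ± 0.19, limma adjusted p = 6.3e-05). It was 2.86-fold higher at 28 dpn than at 1 dpn (limma, adjusted p = 8.3e-06), with a log2 change of 1.52 on all 1 dpn arrays and 1.15 on the even ones, and it fell by 0.74 on the log2 scale at 188 dpn against 28 dpn (adjusted p = 0.0268). The last call was lost with each array centred on its median (adjusted p = 0.145) and without any 1 of 28 dpn replicates 4 and 5 or 188 dpn replicates 2 and 3 (adjusted p up to 0.114). Its correlation with SLA-2 over the 22 arrays was 0.94, and with SLA-DRA 0.92, where the other 8 B2M probe sets gave -0.64 to 0.72 with SLA-2. These correlations run over 4 stages and include the stage differences.

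Ssc.12348.2.S1_at rose alongside it. It averaged 8066 ± 3376 at 28 dpn and 2892 ± 258 at 94 dpc (SD, n = 6 each), 2.61-fold with no overlap (limma, adjusted p = 0.00014), and fell by 1.20 on the log2 scale at 188 dpn against 28 dpn (adjusted p = 0.00496). Within stages it did not follow SLA-2 closely, with a correlation of deviations from stage means of 0.14 over 22 arrays, beside 0.76 for Ssc.12348.1.S1_at.

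The B2M probe set Ssc.8925.1.S1_at had its lowest signals at 188 dpn. Its signals at 188 dpn were 4564, 5245, 2730.5 and 2865, against 21972 to 47606 at 28 dpn, and no animal of an earlier stage was below 7351. The mean was 3851 ± 1249 at 188 dpn (SD, n = 4) and 35278 ± 10080.0 at 28 dpn (SD, n = 6), a log2 change of -3.20 ± 0.30, or 9.16-fold lower (limma, adjusted p = 1.3e-06). Against 94 dpc it was 6.24-fold lower at 188 dpn (adjusted p = 3.3e-07). Over the same interval from 94 dpc to 188 dpn, Ssc.12348.1.S1_at had a log2 change of 0.46 ± 0.22 (limma, adjusted p = 0.107).

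Another pair of B2M probe sets, when all arrays were used, had its highest means at 1 dpn. Ssc.5896.1.S1_at averaged 51334 ± 8417 at 1 dpn and 36004 ± 3109.9 at 94 dpc (SD, n = 6 each), a log2 change of 0.50 (limma, adjusted p = 0.00667), and was lower again at 28 dpn (-0.51, adjusted p = 0.00889), but neither call held on the even arrays (log2 changes 0.25 and -0.26, adjusted p = 0.299 and 0.31) or with the GAPDH ratio as a covariate (adjusted p = 0.213 and 0.174). With only the 2 stages compared in the fit, the second change had an adjusted p of 0.0733, and after quantile normalization the first was -0.038 (adjusted p = 0.824). Ssc.12809.5.A1_at had 27666, 34093, 27718 and 24929 on the 4 low-ratio 1 dpn arrays and 8105 and 8647 on the 2 even ones. Its rise at 1 dpn against 94 dpc (log2 change 0.89, limma adjusted p = 0.0211) was -0.28 with only the even pair (adjusted p = 0.343), so the direction depended on the 4 low-ratio arrays.

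The remaining 4 B2M probe sets were dimmer and each took its own course. Ssc.17269.1.S1_at was 2.81-fold higher at 28 dpn than at 94 dpc (limma, adjusted p = 5.3e-06) and already 2.16-fold higher at 1 dpn (adjusted p = 0.000121). Ssc.19916.2.S1_a_at was 2.34-fold higher at 28 dpn than at 94 dpc (limma, adjusted p = 0.000266) and stayed 2.17-fold above 94 dpc at 188 dpn (adjusted p = 0.00118). Ssc.12809.4.S1_a_at had its low point at 1 dpn, where it averaged 374 ± 96.6, against 748 ± 106 at 94 dpc (SD, n = 6 each; 2.00-fold lower at 1 dpn, limma adjusted p = 8.9e-05). Ssc.7768.1.A1_at was lower at 188 dpn than at 94 dpc, by a log2 change of -1.40 (limma, adjusted p = 0.00255), with stage means of 1087, 1098, 583 and 428 in order of age.

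SLA-DRA encodes the alpha chain of the DR class II molecule. Its signals (Ssc.222.1.S1_at) were 1300.0, 1278, 1268, 1041, 1444 and 1242 at 94 dpc and 819, 236, 636, 436, 237 and 1276 at 1 dpn. At 28 dpn they were 2832, 4230.4, 1773, 4633, 6237 and 4818, and at 188 dpn 3339, 1237, 1061 and 1424. The 94 dpc animals lay close together, every 28 dpn animal lay above every younger one, and the single high animal at 188 dpn overlapped 28 dpn.

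SLA-DRA averaged 4087 ± 1575 at 28 dpn and 1262 ± 129.9 at 94 dpc (SD, n = 6 each), 2.99-fold higher (log2 change 1.58 ± 0.37, limma adjusted p = 0.00242). Against 1 dpn it was 7.29-fold higher (log2 change 2.87 ± 0.37, limma adjusted p = 1.1e-05), and the log2 change was 1.87 on the even 1 dpn arrays (adjusted p = 0.00467). The 188 dpn animals averaged 1765 ± 1059.6 (SD, n = 4), which was not called against 28 dpn (log2 change -1.25 ± 0.41, limma adjusted p = 0.0523) and had an adjusted p of 0.0143 in the fit that kept only the even 1 dpn arrays.

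SLA-DRB1, the polymorphic beta chain that pairs with the DR alpha chain, is annotated to 3 probe sets, and 1 of them was well above background. Ssc.210.1.S1_a_at gave 2062, 1931, 2173, 1352, 1566 and 1945 at 94 dpc and 847, 373, 781, 224, 302 and 1666 at 1 dpn. It gave 2327, 3105, 1399, 3772, 3851 and 2841 at 28 dpn and 2835, 1321, 682 and 1122 at 188 dpn. The 28 dpn and 94 dpc groups overlapped, unlike those of SLA-DRA.

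Its mean was 2883 ± 926 at 28 dpn and 1838 ± 314 at 94 dpc (SD, n = 6 each), a log2 change of 0.59 ± 0.40 that was not called (limma, adjusted p = 0.279). Against 1 dpn, where the mean was 699 ± 539 (SD, n = 6), the 28 dpn animals were 4.83-fold higher (log2 change 2.27 ± 0.40, limma adjusted p = 0.000237). With the even 1 dpn arrays alone this change was 1.19 and was no longer called (adjusted p = 0.0698). At 188 dpn the change against 28 dpn was -1.06 ± 0.44 (limma, adjusted p = 0.129).

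The other SLA-DRB1 probe sets held little signal. Ssc.16211.1.A1_at was above background on 3 of 22 arrays, all at 1 dpn, where it averaged 79.6 ± 27.2, against 29.4 ± 24.0 at 94 dpc (SD, n = 6 each). It was called higher at 1 dpn (limma, adjusted p = 0.00631), and since every 94 dpc array was below background, the difference is given as at least 1.08-fold. The 3 arrays above background were all of the low-ratio kind, and on the even arrays the difference was not called (adjusted p = 0.205). Ssc.16211.1.S1_at was below background on all 22 arrays, with stage means of 9.72, 13.6, 18.9 and 3.24 in order of age, and was the probe set not called in the F test (adjusted p = 0.599).

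The changes of the SLA-DRB1 probe sets were also set against each other within samples by an exact two-sided permutation test, in 18 tests over 3 pairs and 6 comparisons. Every one of these tests holds a probe set at or near background, so no size of difference is given. In 2 tests the adjusted p was under 0.05, both for Ssc.210.1.S1_a_at against Ssc.16211.1.A1_at, at 1 dpn against 94 dpc (exact p = 0.00216, the smallest 6 against 6 allows, adjusted p = 0.039) and at 28 dpn against 1 dpn (exact p = 0.00433, adjusted p = 0.039). With the even 1 dpn arrays alone the smallest exact p is 0.0357 for 6 against 2 and 0.0667 for 4 against 2, too large to say anything after adjustment over 18 tests.

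**Figure D3:**
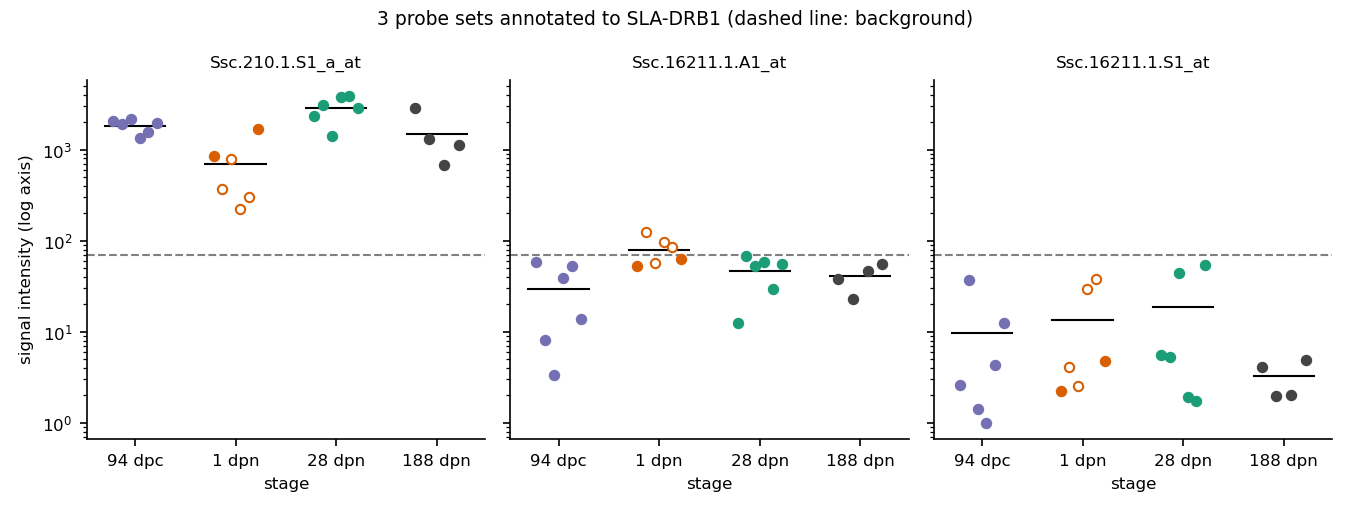
Signal intensity (log axis) of the 3 probe sets annotated to SLA-DRB1 in each sample, by stage, with stage means as black lines, low-ratio 1 dpn arrays as open circles and background (69.7) as a dashed line. Ssc.210.1.S1_a_at lies above the line on all 22 arrays, Ssc.16211.1.A1_at on 3 and Ssc.16211.1.S1_at on 0.

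CD74, the invariant chain that escorts class II molecules, had its lowest mean at 1 dpn and its highest at 28 dpn, as SLA-DRA did. Its signals (Ssc.6222.1.S1_a_at) were 290.5, 194, 224, 292, 359.9 and 226 at 94 dpc and 133, 130.3, 164, 25.7, 23.5 and 162 at 1 dpn. They were 558, 715, 311, 831, 911 and 926 at 28 dpn and 402, 229, 181 and 249 at 188 dpn. All 1 dpn animals lay below all animals of the other stages, and 1 dpn replicates 4 and 5 lay below background.

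CD74 averaged 709 ± 238 at 28 dpn and 264 ± 61.1 at 94 dpc (SD, n = 6 each), 2.48-fold higher (log2 change 1.31 ± 0.37, limma adjusted p = 0.00926). Against 1 dpn it was 6.68-fold higher at 28 dpn (log2 change 2.74 ± 0.37, limma adjusted p = 1.6e-05), and the log2 change was 2.07 on the even 1 dpn arrays (adjusted p = 0.000704). At 188 dpn it was lower than at 28 dpn (log2 change -1.34 ± 0.41, limma adjusted p = 0.0367), a call lost without any 1 of 28 dpn replicates 2, 4, 5 and 6 or 188 dpn replicates 2, 3 and 4 (adjusted p up to 0.119) as well as after quantile normalization, with each array centred on its median or with a pseudocount of 1 (adjusted p up to 0.0916). Its 188 dpn mean of 265 ± 95.6 (SD, n = 4) differed from that at 94 dpc by a log2 change of -0.02 ± 0.41.

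Around birth the class II genes were lower at 1 dpn than at 94 dpc when all arrays were used. The log2 change was -1.28 for SLA-DRA (limma, adjusted p = 0.00997), -1.68 for SLA-DRB1 (adjusted p = 0.00208) and -1.43 for CD74 (adjusted p = 0.00458), and -0.87 for SLA-2 (adjusted p = 0.0832). In this comparison 4 of 15 member probe sets were higher and 4 lower, where 10.9% and 21.7% of all probe sets were (32.7% in either direction). On the even 1 dpn arrays none of these 4 genes was called, with log2 changes of -0.29 for SLA-DRA, -0.60 for SLA-DRB1, -0.76 for CD74 and 0.35 for SLA-2 (limma, adjusted p = 0.14 to 0.677).

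Within 1 dpn, the 4 low-ratio arrays were below the even pair for SLA-2 (736 to 1275 on the low-ratio arrays, 2331 and 5756 on the even ones), SLA-DRA (236 to 636, and 819 and 1276) and SLA-DRB1 (224 to 781, and 847 and 1666), with no overlap. CD74 overlapped, at 23.5 to 163.5 on the low-ratio arrays and 133 and 162 on the even ones. The 188 dpn animals were higher than 1 dpn animals for SLA-2, SLA-DRA, SLA-DRB1 and CD74 on all arrays (log2 change 1.21 to 1.61, limma adjusted p = 0.00464 to 0.0416), among 7 member probe sets higher and 3 lower, where 14.2% and 15.7% of all were (29.9% in either direction). None of these 4 calls held on the even 1 dpn arrays (adjusted p = 0.193 to 0.881). The 188 dpn to 94 dpc comparison, free of 1 dpn arrays, had 2 of 15 higher and 2 lower, all 4 of them B2M probe sets, where 13.6% and 22.5% of all were (36.2% in either direction).

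The other genes of the class I pathway were read by 1 probe set each, the brightest, and 13 of 19 listed genes were measured. The later lists were read in the same way. Shares over all probe sets also cover dimmer ones, so lists and shares are unlike sets. At 28 dpn against 94 dpc, 5 of 13 were higher and 2 lower, where 13.1% and 17.2% of all probe sets were. The risers were PSMB8, a subunit of the immunoproteasome that cuts proteins into peptides (626 ± 413 at 28 dpn, 191 ± 76.1 at 94 dpc; log2 change 1.53, limma adjusted p = 0.0016), TAP1, which carries peptides into the endoplasmic reticulum (1.28, adjusted p = 0.00246), TAPBP, which joins that transporter to class I (0.81), and the class I genes SLA-3 (1.50) and SLA-6 (1.00). The general chaperones CANX (-0.93) and PDIA3 (-0.51) fell. The median log2 change of the 13 was 0.29, beside 0.02 over all probe sets.

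At 188 dpn against 28 dpn, 8 of the 13 class I pathway genes were lower and 0 higher, where 8.2% and 3.65% of all probe sets were. SLA-6 averaged 255 ± 40.6 at 188 dpn (SD, n = 4) and 981 ± 257 at 28 dpn (SD, n = 6), a log2 change of -1.85 (limma, adjusted p = 0.000101), with SLA-3 at -1.81, SLA-8 at -1.72 and TAP1 at -1.66. At 28 dpn against 1 dpn, 8 of 13 were higher and 1 lower on all arrays, where 13.9% and 8.39% of all probe sets were. PSME1, an activator of the proteasome, led the rises (1.46). On the even 1 dpn arrays 2 of 13 were higher and 1 lower, where 11.2% and 5.39% of all probe sets were.

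The class II pathway list had 16 of 21 genes measured. At 28 dpn against 94 dpc, where 13.1% of all probe sets were higher and 17.2% lower, 4 of 16 were higher and 0 lower. These were SLA-DMB, a chain of the DM molecule that loads peptides (1067 ± 275 at 28 dpn, 478 ± 87.1 at 94 dpc, limma adjusted p = 0.00814), the lysosomal protease CTSD (log2 change 0.96), the DQ beta chain SLA-DQB1 (0.89, adjusted p = 0.0374), and SLA-DOA, a chain of the DO molecule that restrains DM, which averaged 106 at 28 dpn and 17.0 at 94 dpc, so far below background at 94 dpc that no fold is given. Against 1 dpn, 8 were higher and 1 lower on all arrays, where 13.9% and 8.39% of all probe sets were. On the even arrays 3 were higher and 1 lower, where 11.2% and 5.39% of all probe sets were. SLA-DQA1, the DQ alpha chain, averaged 2163 ± 637 at 28 dpn and 480.5 ± 207 at 1 dpn (SD, n = 6 each; log2 change 2.17, limma adjusted p = 4.7e-06), a change of 1.62 with only the even pair at 1 dpn. The lower gene was CIITA, the coactivator known to switch on class II genes, whose 28 dpn mean of 38.1 was below background. At 188 dpn against 28 dpn, SLA-DQB1 (-1.12) and SLA-DQA1 (-1.02) fell and 0 of 16 rose, where 8.2% of all probe sets fell and 3.65% rose.

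**Figure D4:**
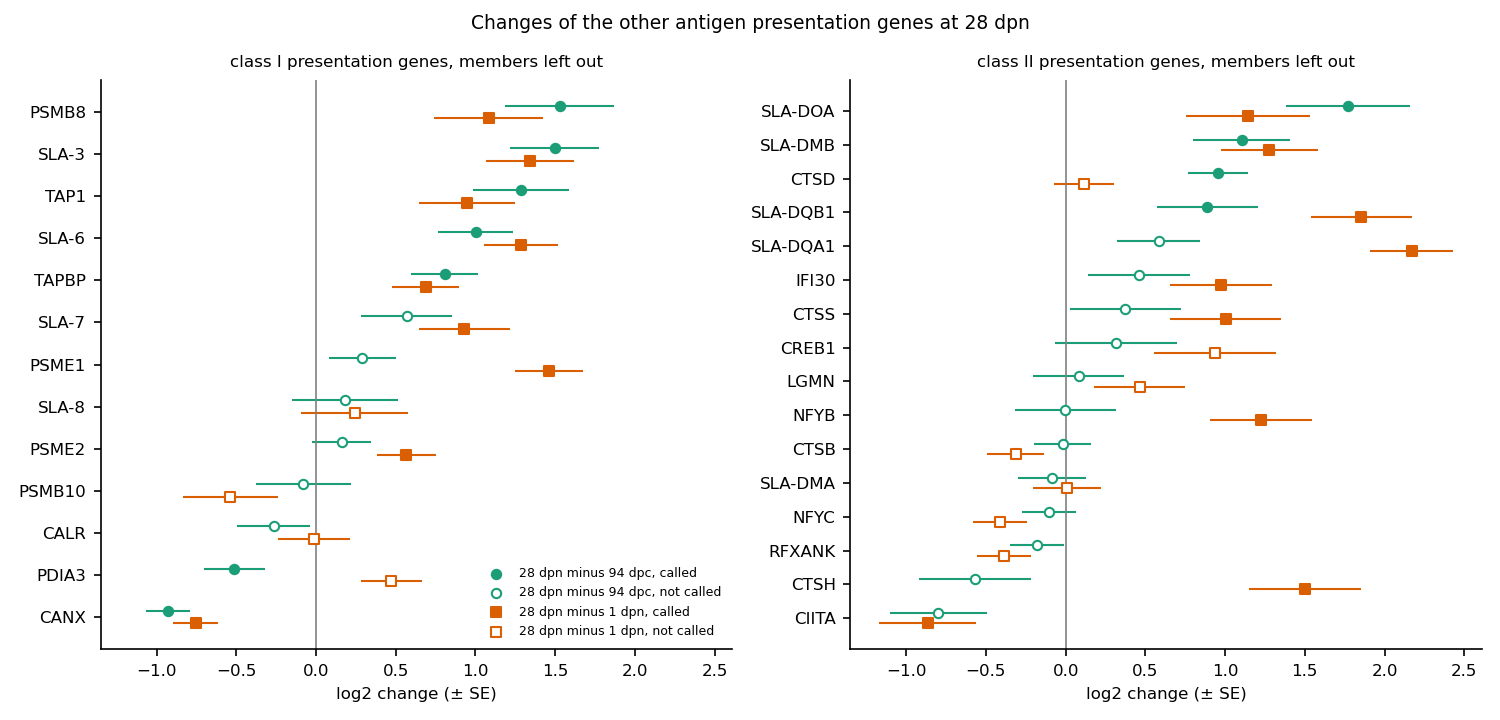
Log2 change ± SE (x axis) of the 13 measured class I and 16 measured class II pathway genes other than the members, at 28 dpn against 94 dpc (circles) and against 1 dpn (squares), filled where called. SLA-DOA at 94 dpc and CIITA at 28 dpn had means below background. PSMB8, SLA-3, TAP1 and SLA-6 lie at 1.00 or above in the class I panel against 94 dpc, and CANX at -0.93.

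Interferon gamma is the classical inducer of both pathways. Of 16 listed genes of its axis, 11 were measured. At 28 dpn against 94 dpc, 5 of 11 were higher and 0 lower, where 13.1% and 17.2% of all probe sets were. GBP1, a guanylate-binding protein induced by interferon, averaged 998 ± 725 at 28 dpn and 76.4 ± 19.8 at 94 dpc (SD, n = 6 each; log2 change 3.14, limma adjusted p = 0.000121). IRF1, a transcription factor of the response, averaged 966 ± 322 at 28 dpn and 439 ± 52.7 at 94 dpc (1.05, adjusted p = 0.0186), and GBP2 (1.19) rose too. CXCL9, a chemokine, was called higher, at 258 ± 236 at 28 dpn and 53.2 ± 9.75 at 94 dpc, a mean below background. IFNG itself was called higher but averaged 50.1 at 28 dpn and 16.0 at 94 dpc, both below background. GBP1 (-2.25) and IRF1 (-1.58) fell at 188 dpn against 28 dpn. Of the co-stimulation list, 5 of 9 genes were measured and 0 of 5 rose at 28 dpn against either earlier stage. Of all probe sets, 13.1% rose against 94 dpc and 13.9% against 1 dpn, and 5 genes are too few to set against these shares. CD83, a marker of mature dendritic cells, was lower at 28 dpn than at 94 dpc (-1.08, limma adjusted p = 0.0375), where 17.2% of all probe sets were.

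The genes whose signals were most like SLA-DRA over the 22 arrays were SLA-DQA1 (Pearson r 0.94), SLA-DQB1 (0.94), C1QC (0.93), FCGR3A (0.93) and LOC106504372 (0.91). Their deviations from stage means correlated with those of SLA-DRA at 0.86 to 0.93. These genes were picked by r over the same arrays, so high values within stages partly follow from that choice. The genes most like SLA-2 were EI24 (0.91), LOC100513601 (0.90), C1QC (0.90), CAPZB (0.90) and EF1ALPHA (0.89), with 0.70 to 0.83 within stages. On other probe sets the annotation lists LOC100513601 beside SLA-2, and LOC106504372 beside SLA-DRB1. The probe set of LOC100513601 has the suffix that marks probes matching related sequences, as that of SLA-2 has, so both may partly read the same RNA. The signal of LOC106504372 may likewise hold SLA-DRB1 RNA. Neither was tested, so these LOC genes may not be independent of the members. C1QC, a subunit of complement C1q made mainly by macrophages, the Fc receptor FCGR3A, SLA-DQA1 and SLA-DQB1 are also on the lists used here.

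Some macrophage and dendritic markers changed in the same comparisons. Of 13 measured of 20, 5 were higher and 1 lower at 28 dpn than at 94 dpc, where 13.1% and 17.2% of all probe sets were, and 7 were not called. At 188 dpn against 28 dpn 2 were lower, where 8.2% of all were. C1QC averaged 3586 ± 1675 at 28 dpn and 1313 ± 190.3 at 94 dpc (SD, n = 6 each; log2 change 1.29, limma adjusted p = 0.0149), and MRC1, the mannose receptor, was the lower one (-0.84). The summed signal of the 13 was 4335 to 5398 at 94 dpc, 2388 to 4891 at 1 dpn, 4127 to 14696 at 28 dpn and 2493 to 8226 at 188 dpn. Of 10 measured T and NK cell markers, 6 were higher and 0 lower at 28 dpn than at 94 dpc, where 13.1% and 17.2% of all probe sets were. Their summed signals were 611 to 1145 at 28 dpn and 283 to 406 at 94 dpc. The sums at 94 dpc were too low for all 10 to lie above background (69.7). The summed signal of the 11 measured endothelial markers was 16159 to 19073 at 94 dpc, 5526 to 7230 at 1 dpn, 9632 to 14191 at 28 dpn and 4254 to 5876 at 188 dpn. These sums were thus higher at 28 dpn than at 1 dpn and 188 dpn without overlap, as for the B2M probe set Ssc.12348.1.S1_at, but lower than at 94 dpc. No measured marker of these lists was below background on all arrays, which does not place each of them above background at every stage. In bulk tissue, a change in the number of such cells and a change in RNA per cell cannot be told apart, and the part of these markers in the member changes was not tested.

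Animals of the same stage also differed, and at 28 dpn and 188 dpn the same animal lay at the end of the range for several members. At 28 dpn replicate 3 was the lowest of 6 for SLA-2, SLA-DRA, SLA-DRB1, CD74 and B2M (Ssc.12348.1.S1_at), and its summed macrophage and dendritic signal of 4127 was the lowest of that stage. Its sums of T and NK cell, skeletal muscle, liver and erythroid markers were the lowest too, and its sum of B and plasma cell markers, 356, was the highest. It was also the lowest for B2M Ssc.5896.1.S1_at, Ssc.8925.1.S1_at, Ssc.17269.1.S1_at, Ssc.12809.4.S1_a_at and Ssc.19916.2.S1_a_at. For Ssc.12809.5.A1_at, Ssc.12348.2.S1_at and Ssc.7768.1.A1_at it was not. At 188 dpn replicate 1 was the highest of 4 for SLA-2, SLA-DRA, SLA-DRB1, CD74 and B2M (Ssc.12348.1.S1_at). It had the highest macrophage and dendritic sum, 8226, where the other 3 animals had 2493 to 3840.5. Its sums of T and NK cell, pan-leukocyte, endothelial and liver markers were also the highest, and it was the lowest of 4 for 3 of the other B2M probe sets (Ssc.17269.1.S1_at, Ssc.12809.4.S1_a_at and Ssc.19916.2.S1_a_at).

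Over all 22 arrays, deviations from stage means correlated in each of the 6 pairs of SLA-2, SLA-DRA, SLA-DRB1 (Ssc.210.1.S1_a_at) and CD74. SLA-DRA with SLA-DRB1 gave Pearson r 0.88 and Spearman rho 0.88 (permutation p = 9e-05 and 6e-05, adjusted p = 0.00054 and 0.00036), and without the 2 farthest samples r was 0.82. SLA-DRA with SLA-2 gave r 0.72 and rho 0.78 (permutation p = 0.00255 and 0.00012, adjusted p = 0.0051 and 0.00036), and r 0.83 without the 2 farthest. The lowest pair was SLA-2 with CD74, at r 0.66 and rho 0.61 (permutation p = 0.0141 and 0.0133, and the same after adjustment), and r 0.64 without the 2 farthest. With the 1 dpn arrays left out, 16 arrays remained. The r of SLA-DRA with SLA-DRB1 was then 0.90, and with SLA-2 0.85 (permutation, adjusted p = 0.00108 each). Among these 16, SLA-2 with SLA-DRB1 had r 0.65 (permutation, adjusted p = 0.0224) and 0.31 without the 2 farthest samples. SLA-DRB1 with CD74 had r 0.71 (permutation, adjusted p = 0.0142), rho 0.53 (adjusted p = 0.0626) and r 0.43 without the 2 farthest. The B2M probe set Ssc.12348.1.S1_at, chosen for its likeness to SLA-2 and therefore not tested, had r of 0.58 to 0.78 with these 4 genes over 22 arrays and 0.36 to 0.78 over 16, lowest with SLA-DRB1 in both.

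**Figure D5:**
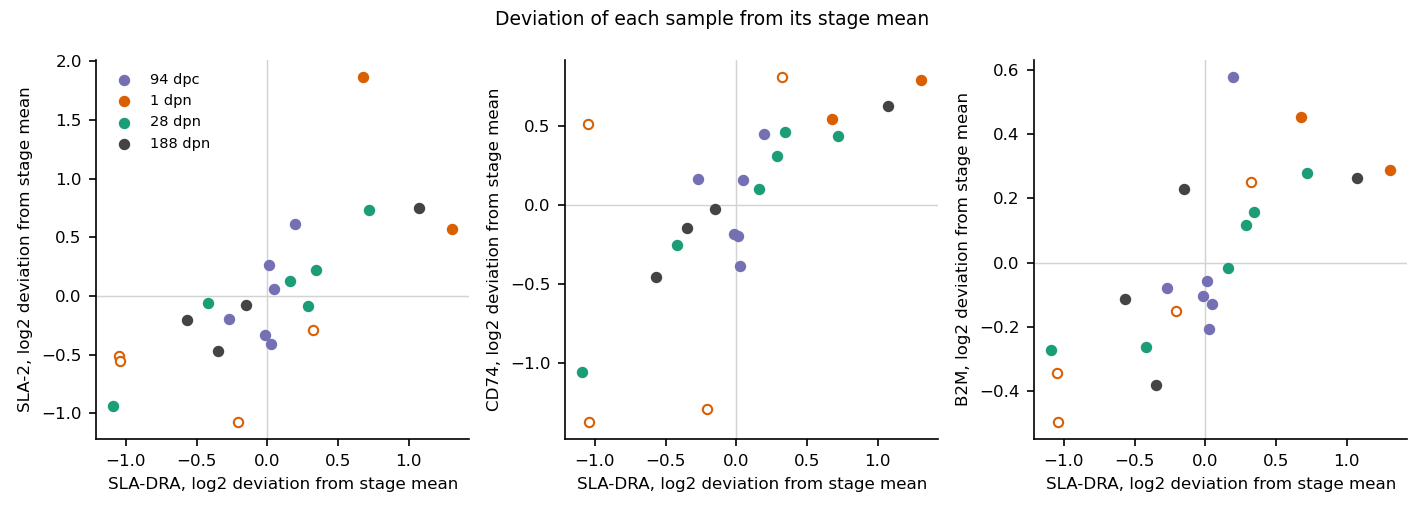
Deviation of each sample from its stage mean on the log2(signal + 16) scale, for SLA-DRA (x axis) against SLA-2, CD74 and B2M Ssc.12348.1.S1_at (y axes), coloured by stage, with low-ratio 1 dpn arrays as open circles. The points rise together in each panel, with r of 0.72, 0.69 and 0.78 over 22 arrays. The B2M probe set was chosen for its likeness to SLA-2, so its panel is a description only.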

How the data were processed

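Total RNA was made into biotinylated cRNA from 0.5 µg and hybridised to an Affymetrix porcine array, per the labels. The authors deposited linear signal intensity per probe set, for which the submitters' processing notes name GCOS 1.1.1, and the scaling to a common trimmed mean was read from the deposited values. The 124 control probe sets among 24123 were dropped, and of the 23999 tested 10069 had 1 symbol, 198 several and 13732 none.

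Values were used as log2(signal + 16) without further normalization, so folds of dim genes are understated. limma 3.58.1 (R 4.3.3) fitted 1 mean per stage over 22 arrays, with an F test, 6 comparisons and Benjamini-Hochberg adjustment over all 23999 probe sets. Exact permutation tests compared SLA-DRB1 probe sets, and 100000 permutations within stages tested 6 correlations. The p-values treat animals as independent. The number of arrays, 6, 6, 6 and 4, limits precision.

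Named were all member probe sets, up to 4 called genes of each pathway list by size of change, and the 5 genes most like SLA-2 and SLA-DRA. Macrophage markers, IFNG, CTSD, CIITA, TAPBP and PDIA3 outside that rule were named after their values were seen. The members and lists were chosen with earlier results of these data known. The fit was tested on simulated data. No genome coordinates or sequences were used. Alternatives were quantile normalization, median centring, pseudocounts of 1 and 64, trended and robust variances, array weights, only the stages compared, only bright probe sets, the GAPDH 5'/3' log2 ratio as a covariate, only even or only low 1 dpn arrays, and each sample left out.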

Additional observations from a re-analysis of the deposited data

Results flagged for a closer look

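Within stages of 4 or 6 animals, 3 of 60 sets of member values held 1 sample far from the rest, about the number that chance gives at 1 in 20. All 3 were B2M probe sets. For Ssc.12348.1.S1_at, 94 dpc replicate 5 had a signal of 28980.0, where the other 5 had 16779.7 to 18619.9. For Ssc.12348.2.S1_at, 1 dpn replicate 6 had 1597.5, where the other 5 had 2966 to 3963. For Ssc.12809.5.A1_at, 188 dpn replicate 4 had 8708.5, where the other 3 had 11677 to 11865.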

How the results depend on the processing

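SLA-2, SLA-DRA and CD74 were called higher at 28 dpn than at 94 dpc and 1 dpn under all 11 alternatives and with each of the 22 samples left out. For 28 dpn against 94 dpc, settings that only dropped arrays of other stages could alter the p-value but not the change. No alternative used the dap ratio, which set these 2 stages apart. No paired analysis was possible because the labels give no replicate numbers shared between stages. The count of member probe sets lower at 188 dpn than at 28 dpn, 5, was 3 with each array centred on its median and 8 with only the even 1 dpn arrays, and 2 to 7 with 1 sample left out (2 without 188 dpn replicate 2, and 3 without 28 dpn replicate 4 or 5 or 188 dpn replicate 3). The count called at 188 dpn against 1 dpn, 10, was 2 with only the stages compared, 2 with the GAPDH ratio as a covariate and 4 with the even arrays, and 7 to 11 with 1 sample left out. At 1 dpn against 94 dpc, 8 became 2 with the covariate and 2 with the even arrays, and 7 to 9 with 1 left out. With 1 sample left out, the F test called 12 to 14, and the counts were 10 at 28 dpn against 1 dpn, 7 to 8 at 28 dpn against 94 dpc and 4 to 5 at 188 dpn against 94 dpc. Differences between SLA-DRB1 probe sets (2) numbered 4 with a pseudocount of 64, 0 on the even arrays, where 2 arrays at 1 dpn leave the exact test too few permutations, and 1 to 2 with 1 sample left out (1 without 1 dpn replicate 4 or without 28 dpn replicate 1, 2, 4, 5 or 6). Among changes called as reported or under the alternative, directions turned for the B2M probe sets Ssc.5896.1.S1_at and Ssc.12809.5.A1_at. Ssc.5896.1.S1_at turned under quantile normalization, to -0.038 at 1 dpn against 94 dpc and -0.44 at 188 dpn against 94 dpc (limma, adjusted p = 0.00536). Ssc.12809.5.A1_at turned at 1 dpn against 94 dpc, to -0.074 with the covariate (adjusted p = 0.884) and -0.28 on the even arrays. At 28 dpn against 1 dpn Ssc.12809.5.A1_at turned to 0.80 on the even arrays (adjusted p = 0.01). The uncalled SLA-2 change at 1 dpn against 94 dpc, -0.87, was 0.15 with the covariate and 0.35 on the even arrays (neither called), and was called lower under 4 of the 11 alternatives and without 1 dpn replicate 1. The cause was not tested.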

Other observations

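Probe sets that list several SLA symbols were not named, and some of them spread widely within a stage. Ssc.13780.11.S1_x_at, assigned to several class I symbols, gave signals of 3238, 1932, 97.3, 93.8, 123 and 2471 at 28 dpn. It was above background in all 6 of these animals, against 0 of 4 animals at 188 dpn. Ssc.210.7.S1_x_at, assigned to several symbols of the DR region, gave 1210, 1157, 763, 2170, 2944 and 241 at 28 dpn and 3005, 1604, 108 and 583 at 188 dpn. In contrast, Ssc.13780.4.S1_x_at, also assigned to several class I symbols, moved much as the SLA-2 probe set did, with a log2 change of 2.28 at 28 dpn against 94 dpc (limma, adjusted p = 4.7e-05) and -1.38 at 188 dpn against 28 dpn (adjusted p = 0.0262). Ssc.210.6.S1_x_at, which lists SLA-DRB1 beside another symbol, was called higher at 28 dpn than at 94 dpc (log2 change 1.72, limma adjusted p = 0.0241). Ssc.210.7.S1_x_at was not (0.20, adjusted p = 0.87), and Ssc.210.7.A1_x_at was below background on all arrays.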
